A study of Rattus norvegicus with 24 samples.

Results

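The insulin-like growth factor (IGF) axis was followed in kidneys of stroke-prone spontaneously hypertensive rats (SHR-SP) as 10 genes: the growth factor Igf1, its receptor Igf1r, the growth hormone receptor Ghr and the binding proteins Igfbp1 to Igfbp7. Its members were all probe sets that the platform annotation assigns to one of these symbols, 16 of the 15923 probe sets of the Affymetrix rat array and 10 of its 10412 named genes. The rats were males of an inbred line with genetic hypertension, randomised at 11 weeks of age. One diet, here called salt+fat, combined 1% NaCl in the drinking water with chow of 24.5% fat, and the other, here called normal, was powdered chow with plain water. Kidneys were taken after 8 or 2 weeks, giving salt+fat 8 weeks, normal 8 weeks, salt+fat 2 weeks and normal 2 weeks, with 6 animals and 6 arrays each. Salt and fat were always given together, all groups carried the hypertensive background, and no normotensive strain was analysed here. All rats started at 11 weeks of age, so between 8 and 2 weeks the time on a diet and age cannot be told apart.

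Growth hormone acts through its receptor, the product of Ghr, and the kinase JAK2 to activate STAT5, which in liver and other tissues switches on Igf1. IGF-1 binds the tyrosine kinase receptor encoded by Igf1r, and signals through insulin receptor substrates to PI3 kinase and Akt and through Ras to the MAP kinases. Most IGF-1 in blood is held in a complex with the protein of Igfbp3 and an acid-labile subunit. The IGF binding proteins keep IGFs longer in the circulation and limit or aid their access to the receptor, and proteases that cleave them release the ligand. In kidney, growth hormone and IGF-1 are known to raise renal blood flow and filtration, to act on phosphate and sodium transport of the tubule, and to take part in compensatory growth.

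Igfbp1 and Igfbp3 are shown first as sequence, because they lie next to each other and had the extreme diet differences at 8 weeks. Among the members' best-measured probe sets, that of Igfbp1 was the largest positive and that of Igfbp3 the largest negative. The Igfbp1 difference did not pass the threshold used below (adjusted p = 0.163 in limma), whereas that of Igfbp3 did. In the RefSeq annotation of the rat assembly GRCr8 they are neighbouring protein-coding genes on chromosome 14 that run towards each other, and Igfbp2 and Igfbp5 are neighbours on chromosome 9. The 250 bases before the start of Igfbp1 are chr14:86261027-86261276 on the plus strand, and those before the start of Igfbp3 are chr14:86277945-86278194 on the minus strand. Both are given 5′ to 3′, with the motif CAAAACA, the core of the insulin response element of IGFBP1, in capitals.
Igfbp1: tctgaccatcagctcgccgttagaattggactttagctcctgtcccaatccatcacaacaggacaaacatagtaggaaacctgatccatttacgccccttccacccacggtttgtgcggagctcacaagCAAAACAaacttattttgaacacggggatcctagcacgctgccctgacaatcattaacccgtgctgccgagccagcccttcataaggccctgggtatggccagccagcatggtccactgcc
Igfbp3: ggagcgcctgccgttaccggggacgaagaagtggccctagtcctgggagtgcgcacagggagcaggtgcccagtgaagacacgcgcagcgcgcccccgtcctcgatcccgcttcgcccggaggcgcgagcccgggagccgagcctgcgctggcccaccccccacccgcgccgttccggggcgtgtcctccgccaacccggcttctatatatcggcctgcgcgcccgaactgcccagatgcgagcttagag
CAAAACA occurred 1 time in the Igfbp1 window, 121 bases before the start. Among 33465 RefSeq promoter windows of this length, 5.46% held it on either strand. The Igfbp3 window held none of the 4 motifs searched on both strands, which were CAAAACA, the forkhead motif GTAAACA (in 3.22% of windows), the TATA box TATAAA (12.9%) and the GC box GGGCGG (30.5%). The Igf1 window, at a start that lies inside the annotated gene, held CAAAACA 67 bases before that start. The Igfbp6 window held GTAAACA at 221 bases and the Igfbp4 window TATAAA at 40 bases. GC boxes lay in the windows of Igf1r, Igfbp2 and Igfbp7. The windows of Igf1r and Igfbp7 also reach past the first base of the annotated gene. These matches describe the letters only, and the array does not measure binding to them.

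Signals below are MAS5 signals, linear brightness values that the submitters scaled to a common level on every array. Differences are of log2(signal + 7.2) ± SE, salt+fat minus normal diet or 8 minus 2 weeks, a scale that understates the change of weak signals. A probe set was called when its p from limma, fitted to all 24 arrays, stayed under 0.05 after Benjamini-Hochberg adjustment over 10208 probe sets. Of the 16 member probe sets 15 passed the filter on low signals. The other, Igfbp6 probe set 1387625_at, had signals of 2.3 to 33.8 and passed it on 0 arrays. Array medians ran from 68.7 to 78.7. The tissue label was checked with kidney markers. Of these, 15 of 15 proximal tubule genes, 7 of 7 of the thick ascending limb and 5 of 6 podocyte genes passed the filter. So did 9 of 10 of the collecting duct and 3 of 6 of the distal convoluted tubule, in lists that include genes absent from the array. Of all named genes on the array 7493 of 10412 passed, so the check is weak. Normal arrays 1 and 2 at 8 weeks stood apart at the dim end of their signals, where 1% of values lay under 2.4 on array 1 and under 3 on array 2 (0.7 to 1.2 elsewhere), and the values without them are given where a call depends on them.

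At 8 weeks 4 member probe sets fell on the salt+fat diet, both of Igfbp3 and both of Ghr, and 0 rose. Among all probe sets tested, 9.14% were called in either direction and 3.51% were called lower. At 2 weeks 4 fell and 0 rose, both probe sets of Igfbp3 and 1 each of Ghr and Igfbp6, against 8.74% of all probe sets called and 4.19% called lower. The median member difference was -0.08 at 8 weeks and -0.19 at 2 weeks, beside 0.00 and 0.02 over all probe sets tested. An unadjusted p under 0.05 was reached by 7 of 15 member probe sets at 8 weeks and 9 of 15 at 2 weeks, where 2416 and 2328 of all 10208 reached it. The salt+fat and normal arrays did not overlap for 3 of 15 member probe sets at 8 weeks (both of Igfbp3 and 1 of Ghr), against 3.35% of all tested. At 2 weeks this held for 0 of 15, against 4.85%. Probe sets of 1 gene share its transcript, so these counts are of probe sets and not of independent genes. Since RNA came from whole kidney, fewer cells of a type and less RNA per cell cannot be told apart.

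**Figure D1:**
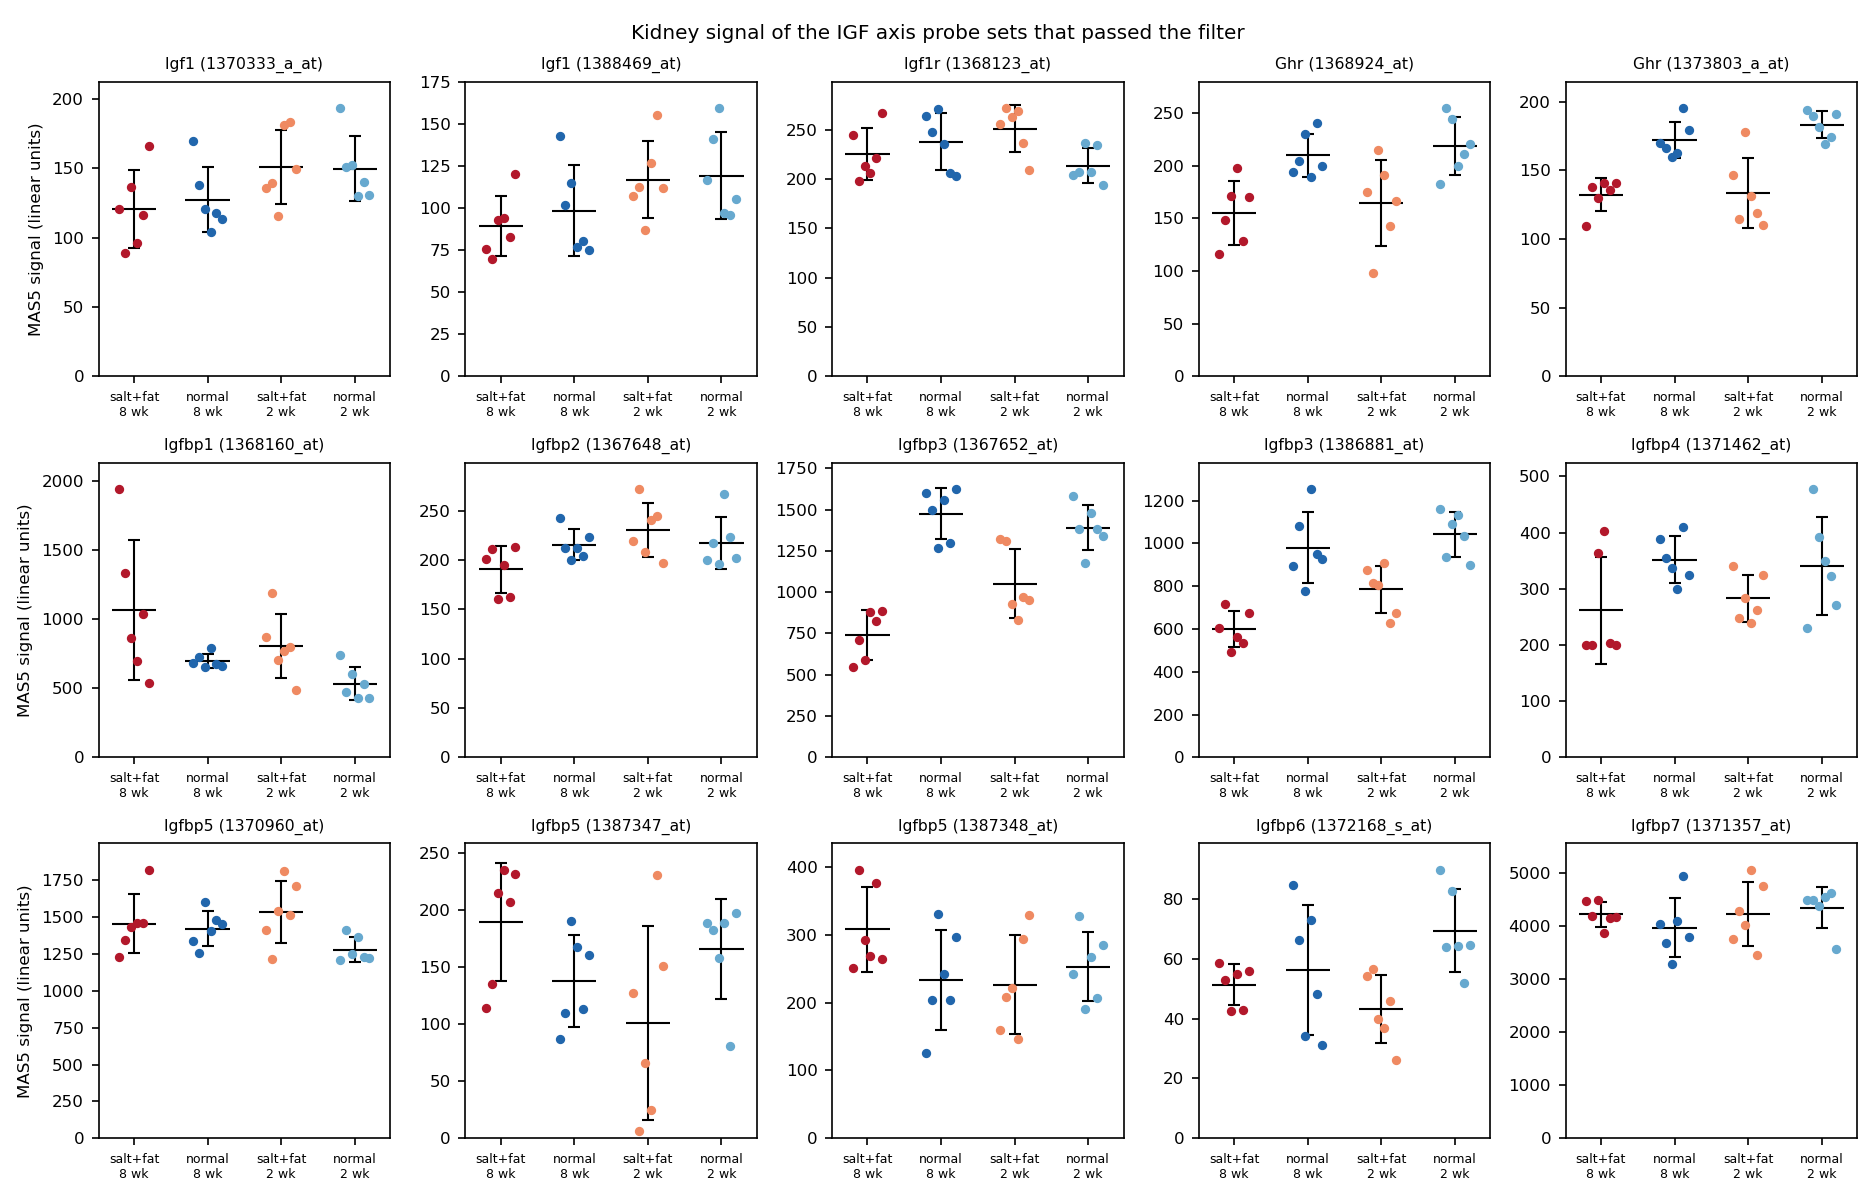
MAS5 signal (linear units, axis from 0) of the 15 tested probe sets of the IGF axis, 1 point per array, with group means and SD (n = 6) as bars. The 6 salt+fat arrays of Igfbp3 at 8 weeks lie below all 6 normal arrays for both probe sets (at most 889 against at least 1266 for 1367652_at), as do those of Ghr 1373803_a_at.

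Among the receptors, Ghr was lower on the salt+fat diet at both times, whereas Igf1r was not called at either. Ghr has 2 probe sets. For 1373803_a_at the salt+fat arrays at 8 weeks had a lowest, median and highest signal of 109.8, 137 and 141, and the normal arrays had 160.0, 168 and 195. All 6 salt+fat arrays lay below all normal arrays. The difference was -0.36 ± 0.09 (adjusted p = 0.0132 in limma). At 2 weeks the same probe set read 110.1, 125 and 178 on salt+fat arrays and 169, 186 and 194 on normal arrays. Of the salt+fat arrays 5 of 6 lay below the lowest normal array and 1 overlapped. It fell by 0.46 ± 0.09 on the log2 scale (adjusted p = 0.00225).

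The other Ghr probe set, 1368924_at, had 116, 159 and 198 on salt+fat arrays and 189, 202 and 240.4 on normal arrays at 8 weeks. These groups overlapped only at their edges, and the difference was -0.43 ± 0.14 (adjusted p = 0.0448). At 2 weeks its salt+fat arrays had 97.9, 171 and 215 and its normal arrays 182, 216 and 255. The difference was as large, -0.42 ± 0.14, but was not called (adjusted p = 0.0513), although all 6 salt+fat arrays lay below the normal median. The 8-week call of 1368924_at was lost without any 1 of salt+fat arrays 1, 2 and 5 or normal arrays 1, 2, 3, 5 and 6 (-0.45 to -0.36, adjusted p = 0.0599 to 0.133). It was also lost with normal arrays 1 and 2 both left out (-0.47, adjusted p = 0.0861), with no filter (-0.43, 0.0658), with no intensity trend (-0.43, 0.0608) and with the spike-in level as a covariate (-0.49, 0.0695). Its 2-week difference was called without salt+fat array 3 (-0.51, adjusted p = 0.0247) or 4 (-0.47, 0.0375) or normal array 1 (-0.47, 0.0459). With all arrays kept, it was also called with quantile normalization (-0.46, adjusted p = 0.0327) and with the filter at the 60th percentile (-0.42, 0.0437). The same held with 4 times the pseudocount (-0.38, 0.0487) and with median centring (-0.43, 0.0493).

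A difference between the diet effects of Ghr at 8 and 2 weeks was not detected. The interaction was -0.01 ± 0.19 for 1368924_at (95% interval -0.41 to 0.39, adjusted p = 0.993) and 0.09 ± 0.13 for 1373803_a_at (-0.17 to 0.36, adjusted p = 0.831). From 2 to 8 weeks Ghr was called on neither diet, with differences between -0.09 and 0.01. Markers of the proximal tubule, where Ghr is known to be expressed, also moved with diet. Of 15 such genes 5 fell and 0 rose at 8 weeks (median -0.20), and their summed signal ran from 30605 to 36401 on salt+fat and from 34582 to 44045 on normal arrays. At 2 weeks 10 fell and 0 rose (median -0.33), with sums of 29801 to 37759 on salt+fat and 40549 to 43632 on normal arrays. None of these genes was at 0 on any array, and their part in the Ghr result was not tested.

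Igf1r, which transmits the signal of IGF-1 and IGF-2, had 199, 218 and 267 on salt+fat and 203, 242 and 271 on normal arrays at 8 weeks. The groups overlapped widely (-0.08 ± 0.09, 95% interval -0.25 to 0.10, adjusted p = 0.651). After 2 weeks Igf1r had 209.8, 259.6 and 272 on salt+fat and 194, 207 and 237 on normal arrays. All 6 salt+fat arrays were above the normal median and 4 above the highest normal array. The difference of 0.22 ± 0.09 was not called (unadjusted p = 0.0163, adjusted p = 0.112), except without salt+fat array 6 (0.27, adjusted p = 0.0471). The diet difference of Igf1r at 8 weeks minus that at 2 weeks was -0.30 ± 0.12 (unadjusted p = 0.0222, adjusted p = 0.334).

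Transcript of the ligand Igf1 did not differ by diet beyond the spread between animals. Its probe set 1370333_a_at had 89.1, 118 and 166 on salt+fat and 104, 119 and 169.7 on normal arrays at 8 weeks (-0.08 ± 0.14, adjusted p = 0.765, 95% interval -0.36 to 0.19). The 2-week signals were 116, 144 and 183 on salt+fat and 130.0, 145 and 193 on normal arrays (0.01 ± 0.14, adjusted p = 0.983, 95% interval -0.27 to 0.28). The groups overlapped widely at both times. The other probe set, 1388469_at, had diet differences of -0.12 ± 0.16 at 8 weeks and -0.03 ± 0.16 at 2 weeks. Igf1 was lower at 8 than at 2 weeks on both diets without being called. For 1370333_a_at the time difference was -0.32 ± 0.14 on salt+fat (unadjusted p = 0.0275, adjusted p = 0.217) and -0.22 ± 0.14 on the normal diet (adjusted p = 0.667). For 1388469_at it was -0.36 ± 0.16 on salt+fat (adjusted p = 0.217) and -0.27 ± 0.16 on the normal diet (adjusted p = 0.639).

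The signals of both Igf1 probe sets moved together from animal to animal. Their deviations from the group means correlated over 24 arrays (Pearson's r = 0.736, adjusted permutation p = 0.00072, Spearman's rho = 0.767, adjusted permutation p = 0.00048, over 6 relations computed). Without the 2 arrays farthest from the median, r was 0.62. The same measure for both Igfbp3 probe sets was r = 0.26 (adjusted permutation p = 0.314) and rho = 0.276 (adjusted permutation p = 0.236), with r = 0.251 without 2 arrays. For both Ghr probe sets r was 0.608 (adjusted permutation p = 0.0575) and rho 0.544 (adjusted permutation p = 0.0473), with r = 0.443 without 2 arrays. The pairs of Igfbp5 probe sets had r of 0.213 to 0.458 (adjusted permutation p = 0.119 to 0.365).

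Igfbp3 fell on the salt+fat diet at both times in both of its probe sets. At 8 weeks 1367652_at had 544.7, 769 and 889 on salt+fat arrays and 1266, 1529 and 1623 on normal arrays. All 6 salt+fat arrays lay far below the lowest normal array. The group means were 739.9 ± 149.5 and 1474 ± 155 (SD, n = 6 each), a ratio of 0.498 on the log2(signal + 7.2) scale. The difference was -1.01 ± 0.12 with a 95% interval of -1.25 to -0.76 (adjusted p = 3.12e-06 in limma). The second probe set, 1386881_at, had 494, 585 and 717 on salt+fat arrays and 779.5, 937 and 1253 on normal arrays. Again the groups did not overlap, and the difference was -0.70 ± 0.11 (adjusted p = 8.21e-05). Both calls held in all 12 fits that left out 1 array of the groups compared and in all 16 other settings, with -1.06 to -0.89 for 1367652_at and -0.76 to -0.63 for 1386881_at.

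At 2 weeks Igfbp3 1367652_at had 829, 959 and 1321 on salt+fat arrays and 1174, 1384 and 1579.9 on normal arrays. A pair of salt+fat arrays reached the normal range and the other 4 lay below it. The difference was -0.42 ± 0.12 (adjusted p = 0.0288). Probe set 1386881_at had 627, 811 and 909 on salt+fat and 900.3, 1063 and 1159.9 on normal arrays, which overlapped at 1 array of each diet (-0.41 ± 0.11, adjusted p = 0.0154). The call of 1367652_at was lost without any 1 of salt+fat arrays 3, 4 and 5 or normal arrays 1 and 4 (-0.40 to -0.35, adjusted p = 0.0572 to 0.0716), and with quantile normalization (-0.36, adjusted p = 0.0661). That of 1386881_at held without each array in turn.

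The diet difference of Igfbp3 was larger at 8 than at 2 weeks in both probe sets, but the interaction was not called. It was -0.59 ± 0.17 for 1367652_at (unadjusted p = 0.00181, adjusted p = 0.148) and -0.29 ± 0.15 for 1386881_at (adjusted p = 0.474). Of all probe sets tested, 0.382% were called for the interaction, and 0 of the 15 members were. An unadjusted p under 0.05 was reached by 5 of 15 members and by 1189 of all 10208. On the salt+fat diet Igfbp3 was lower at 8 than at 2 weeks in both probe sets, by -0.50 ± 0.12 (adjusted p = 0.0148) and -0.39 ± 0.11 (adjusted p = 0.0404). On the normal diet the same differences were 0.08 ± 0.12 and -0.10 ± 0.11, neither called. In order of level, salt+fat at 8 weeks was lowest and salt+fat at 2 weeks next, and the test did not separate the 2 normal groups.

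These 2 calls were the only ones among members for time on the salt+fat diet, in which 3.53% of all probe sets were called and 1.3% called lower. The time call of 1367652_at was lost without salt+fat array 3 at 8 weeks (-0.44, adjusted p = 0.0502). That of 1386881_at was lost without any 1 of salt+fat arrays 1, 2, 3 and 4 at 2 weeks or arrays 1, 3, 4 and 5 at 8 weeks (-0.39 to -0.33, adjusted p = 0.0609 to 0.1155). Both were lost with only the groups compared (-0.50 and -0.39, adjusted p = 0.0676 and 0.0672). On the normal diet 0 of 15 members were called between 8 and 2 weeks by limma and 0 had an unadjusted p under 0.05, where 0.0392% of all probe sets were called.

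Endothelial cells, a known source of IGFBP-3, were followed with 13 marker genes, of which 11 passed the filter. At 8 weeks 1 fell (Kdr, a receptor of vascular endothelial growth factor, -0.40 ± 0.11, adjusted p = 0.0160) and 0 rose, with a median of 0.04. The summed endothelial signal was 1795 to 2236 on salt+fat and 1792 to 2077 on normal arrays. At 2 weeks 1 rose (Emcn, the sialomucin endomucin, 0.22 ± 0.07, adjusted p = 0.0487) and 0 fell. The summed signal was then 1920.3 to 2336 on salt+fat and 1854 to 2092 on normal arrays. No endothelial marker was at 0 on any array. Their part in the Igfbp3 result was not tested.

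Other cell type markers moved at 8 weeks beside Igfbp3. Of fibroblast genes 4 rose and 0 fell of 7 measured, with summed signals of 2385 to 4696 on salt+fat and 1880.4 to 2364 on normal arrays. Of macrophage genes 3 rose and 0 fell of 6 measured, with sums of 2866 to 3822 on salt+fat and 2312 to 2919.5 on normal arrays. Of collecting duct genes 4 rose and 0 fell of 9, of the thick ascending limb 2 rose of 7, of smooth muscle and pericytes 2 rose of 8, and of podocytes and the distal convoluted tubule 1 fell of 5 and of 3. At 2 weeks, beside the lower Igfbp3 and Ghr, collecting duct genes had 6 higher and 1 lower call of 9, with sums of 3668 to 4279 on salt+fat and 2457 to 2889 on normal arrays. Of the thick ascending limb 4 rose of 7 and of smooth muscle and pericytes 2 rose of 8. No gene of the fibroblast, macrophage, podocyte or distal convoluted tubule lists was called at 2 weeks by limma. No marker was at 0 on any array, and the part of these cells in the Igfbp3 and Ghr results was not tested.

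**Figure D2:**
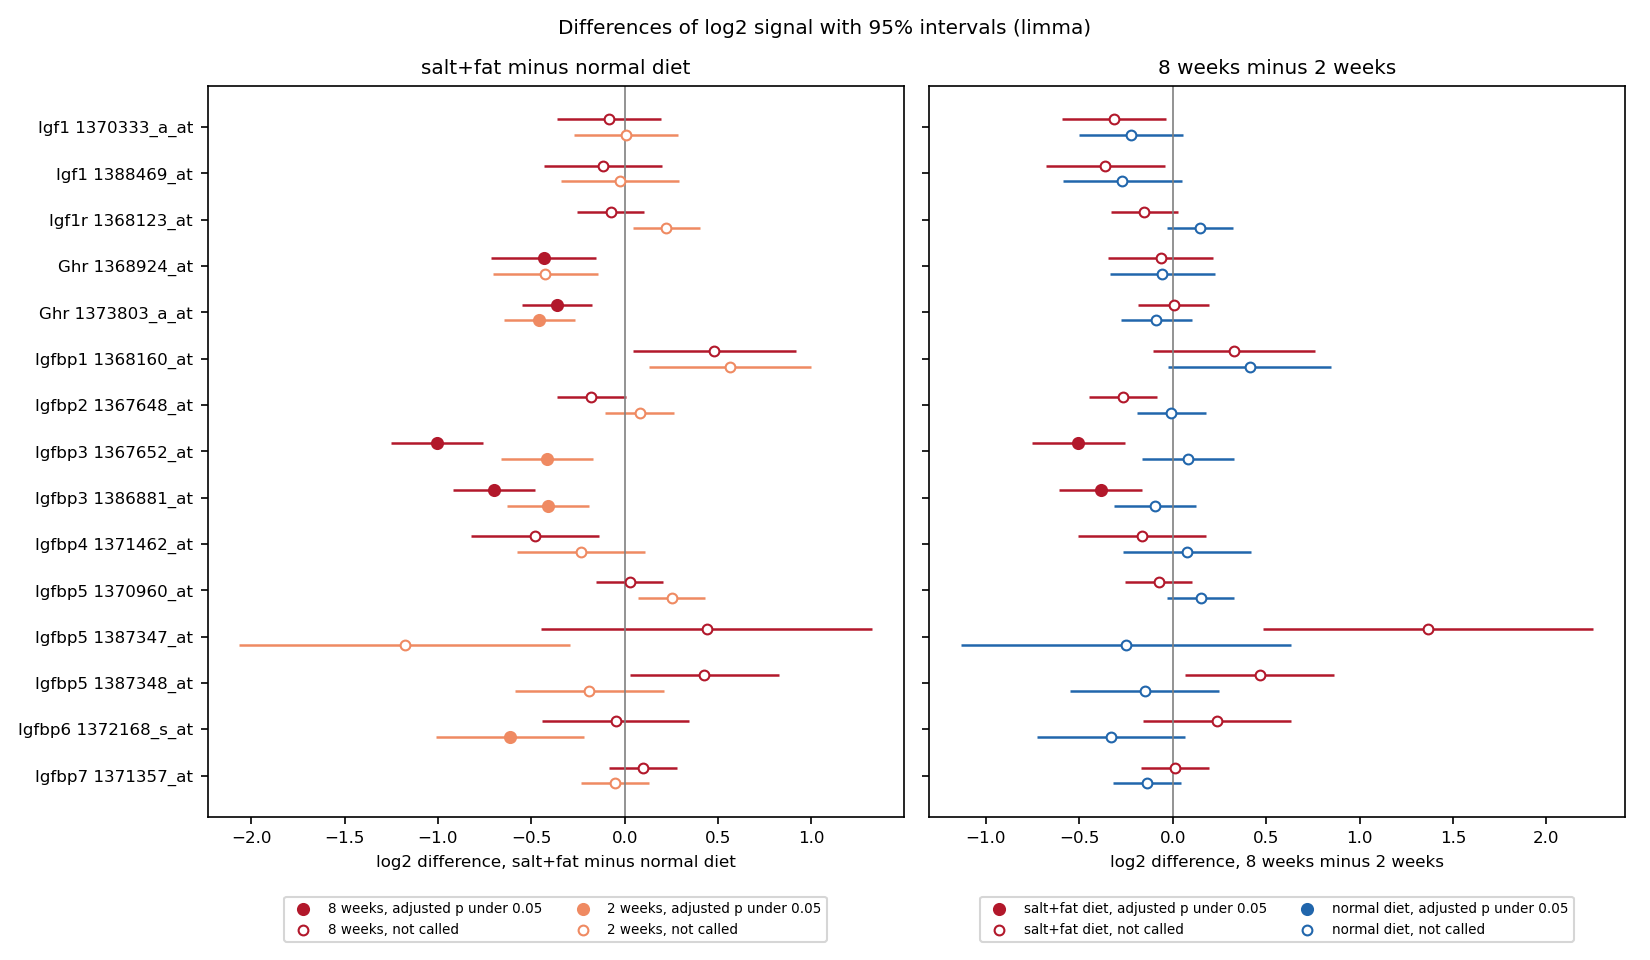
Log2 differences with 95% intervals from limma for the 15 tested probe sets, for diet (left, salt+fat minus normal, 8 and 2 weeks) and for time (right, 8 minus 2 weeks, on each diet). Filled points are called. Igfbp3 has the lowest points of the 8-week diet comparison, at -1.01 and -0.70.

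Igfbp1, whose product is raised by fasting and suppressed by insulin, was higher on the salt+fat diet in most animals but passed the threshold at neither time alone. At 8 weeks it had 541, 947 and 1939 on salt+fat arrays and 653, 681 and 791 on normal arrays. Of the salt+fat arrays 4 lay above the highest normal array and 1 below the lowest. The difference was 0.48 ± 0.21 (unadjusted p = 0.0315, adjusted p = 0.163). After 2 weeks Igfbp1 had 484.5, 784 and 1189 on salt+fat and 426, 501 and 738.5 on normal arrays, and again 4 of 6 lay above the highest normal array (0.56 ± 0.21, unadjusted p = 0.0129, adjusted p = 0.0990). The SD at 8 weeks was 507.9 on salt+fat and 51.2 on normal arrays. Without salt+fat array 6 of each time, the lowest of its group, it was called at 8 weeks (0.65, adjusted p = 0.0341) and at 2 weeks (0.70, adjusted p = 0.0349). With array weights it was called at 2 weeks (0.60, adjusted p = 0.0269).

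Igfbp4, which mostly inhibits IGF action and is cut by the protease PAPP-A, had 199, 202 and 403 on salt+fat arrays and 299.6, 345 and 410.5 on normal arrays at 8 weeks. The salt+fat arrays divided into 4 below the lowest normal array and 2 within the normal range. The difference of -0.48 ± 0.17 was not called (adjusted p = 0.0709), but it was without salt+fat array 3 (-0.58, adjusted p = 0.0290) or 4 (-0.61, adjusted p = 0.0142). At 2 weeks Igfbp4 had 239, 274 and 340.2 on salt+fat and 230.3, 336 and 477 on normal arrays, which overlapped (-0.23 ± 0.17, adjusted p = 0.430).

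A diet difference averaged over both times, a contrast chosen after seeing the data, called 6 member probe sets, 1 higher and 5 lower, against 17.6% of all probe sets tested. Igfbp1 rose by 0.52 ± 0.15 (adjusted p = 0.0161) and Igfbp4 had -0.36 ± 0.12 (adjusted p = 0.0363). Both probe sets of Ghr (-0.43 ± 0.10 and -0.41 ± 0.07) and of Igfbp3 (-0.71 ± 0.09 and -0.56 ± 0.08) made up the rest. The same average of time over both diets called 0 members by limma, against 1.71% of all probe sets. Its lowest member p was that of Igfbp3 1386881_at (-0.24 ± 0.08, unadjusted p = 0.00362, adjusted p = 0.0996), and Igf1 had -0.27 ± 0.10 (adjusted p = 0.153) and -0.32 ± 0.11 (adjusted p = 0.144).

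Igfbp2, a binding protein with a preference for IGF-2, had 160.2, 198 and 213 on salt+fat and 199.6, 212 and 243 on normal arrays at 8 weeks, with 3 salt+fat arrays below the lowest normal array (-0.18 ± 0.09, adjusted p = 0.225). After 2 weeks Igfbp2 had 197, 230.2 and 272 on salt+fat and 196, 209.6 and 267 on normal arrays (0.08 ± 0.09, adjusted p = 0.643). Between 8 and 2 weeks on the salt+fat diet it differed by -0.27 ± 0.09 without being called (unadjusted p = 0.00634, adjusted p = 0.10).

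Igfbp5, a binding protein that also adheres to extracellular matrix, has 3 probe sets whose diet differences disagreed. Probe set 1370960_at, the brightest, had 1227, 1444 and 1817 on salt+fat and 1254, 1428 and 1599.5 on normal arrays at 8 weeks, a nearly complete overlap (0.03 ± 0.09, adjusted p = 0.893). The same probe set at 2 weeks had 1218, 1526 and 1813 on salt+fat and 1205, 1236 and 1409 on normal arrays. Here 5 of 6 salt+fat arrays lay above the highest normal array, and the difference was 0.25 ± 0.09 (unadjusted p = 0.00745, adjusted p = 0.0697). It was called without salt+fat array 2 (0.32, adjusted p = 0.0212), with quantile normalization (0.31, 0.0328) and with array weights (0.24, 0.0348).

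The other Igfbp5 probe sets went the other way at 2 weeks. Probe set 1387347_at had a diet difference of -1.18 ± 0.43 (adjusted p = 0.0885) and 1387348_at had -0.19 ± 0.19 (adjusted p = 0.609). At 8 weeks their differences were 0.44 ± 0.43 and 0.43 ± 0.19, neither called. Probe set 1387347_at was weak and scattered on the 2-week salt+fat arrays, from 6.5 to 231, and passed the filter on 22 arrays. Its 2-week diet difference was called without salt+fat array 5 (-1.52, adjusted p = 0.0238) or 6 (-1.40, adjusted p = 0.0432), and so was its time difference on salt+fat, 1.37 ± 0.43 (adjusted p = 0.0762), at an adjusted p of 0.0186 and 0.0352. No direction for Igfbp5 follows from the 3 together.

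Igfbp6, which binds IGF-2 with preference, was weak, and its probe set 1372168_s_at passed the filter on 17 of 24 arrays. At 2 weeks it had 26.3, 42.9 and 56.5 on salt+fat and 51.7, 64.2 and 89.5 on normal arrays. The groups overlapped at their edges, and it fell by 0.62 ± 0.19 (adjusted p = 0.0447). At 8 weeks it had 42.5, 53.9 and 58.7 on salt+fat and 31.1, 57.1 and 84.6 on normal arrays, which overlapped throughout (-0.05 ± 0.19, adjusted p = 0.917). The 2-week call was lost without any 1 of salt+fat arrays 3 to 6 or normal arrays 1, 2, 3, 4 and 6 (-0.64 to -0.50, adjusted p = 0.0616 to 0.106), with quantile normalization (-0.59, 0.0742) and with no filter (-0.62, 0.0721). The interaction was 0.57 ± 0.27 (unadjusted p = 0.0474, adjusted p = 0.421).

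Adipocyte markers moved with diet at 2 weeks. Of 9 such genes 3 passed the filter (Fabp4, Cfd and Adrb3), and all 3 fell at 2 weeks, with Fabp4, the fatty acid carrier of fat cells, at -2.58 ± 0.72 (adjusted p = 0.0242). Their summed signal was 83.9 to 172 on salt+fat and 146 to 1644 on normal arrays at 2 weeks, and 220.3 to 389.6 on salt+fat and 59.6 to 1364 on normal arrays at 8 weeks. None of the 3 was at 0 on any array. The mean standardised adipocyte level differed by -1.63 at 2 weeks (exact permutation p = 0.00217, adjusted over 8 tests 0.00866) and by 0.42 at 8 weeks (exact permutation p = 0.381). At 2 weeks that level itself separated the diets, at most -0.393 on salt+fat and at least -0.392 on normal arrays. A fit with it as a covariate therefore cannot tell level and diet well apart. With that level as a covariate, limma called 0 members at 2 weeks and 144 of all 10208 probe sets, against 892 without the covariate. Igfbp6 then had -0.19 (adjusted p = 0.776) and Ghr 1373803_a_at -0.45 (0.0635), against -0.62 and -0.46 in the reported fit. Igfbp3 1367652_at had -0.37 (0.291) and Igfbp3 1386881_at -0.32 (0.2895), against -0.42 and -0.41. At 8 weeks the same fit called 6 members, both probe sets of Igfbp3 and of Ghr, Igfbp4 (-0.53, adjusted p = 0.0414) and, as higher, Igfbp5 1387348_at (0.54, adjusted p = 0.0497).

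The GAPDH 3' to 5' ratio, a sign of RNA length, was 1.22 ± 0.09 on salt+fat and 1.09 ± 0.07 on normal arrays at 2 weeks (exact permutation p = 0.0152, adjusted 0.0404). At 8 weeks it was 1.16 on both (exact permutation p = 0.911). The level of 18 spike-in probe sets was lower on salt+fat arrays at 2 weeks by -0.30 on the log2 scale (exact permutation p = 0.00217, adjusted 0.00866), and differed by 0.23 at 8 weeks (adjusted exact permutation p = 0.0935). The part of RNA quality and of spike-in level in the 2-week values was not tested beyond fits with each as a covariate. With the GAPDH ratio as a covariate 1 member was called at 2 weeks, Ghr 1373803_a_at, and 314 of all 10208 probe sets were. The members no longer called had -0.40 (Igfbp3 1367652_at, adjusted p = 0.139), -0.44 (Igfbp3 1386881_at, 0.0552) and -0.51 (Igfbp6, 0.260). With the spike-in level 3 members and 482 of all probe sets were called, and Igfbp3 1386881_at had -0.38 (adjusted p = 0.10). The spike-in level too separated the diets at 2 weeks, at most 0.068 on salt+fat and at least 0.083 on normal arrays. Liver genes, of which 5 of 12 passed the filter, summed to 486 to 962 on salt+fat and 517 to 793 on normal arrays at 2 weeks, and 1 of them, Alb, fell (-1.66 ± 0.41, adjusted p = 0.0116). With the liver level as a covariate 2 members and 510 of all probe sets were called at 2 weeks, while Igfbp3 1367652_at had -0.43 (adjusted p = 0.0542) and Igfbp6 -0.51 (adjusted p = 0.145).

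Igfbp7, a secreted protein of vessels that binds IGFs weakly and insulin, had 3861, 4182 and 4484.5 on salt+fat and 3294, 3909 and 4944 on normal arrays at 8 weeks. The groups overlapped throughout (0.10 ± 0.09, adjusted p = 0.555). After 2 weeks Igfbp7 had 3459, 4153 and 5051 on salt+fat and 3576.5, 4484 and 4626 on normal arrays, and again did not separate by diet (-0.05 ± 0.09, adjusted p = 0.782, 95% interval -0.23 to 0.13).

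Other genes of growth hormone and IGF signalling were followed in 6 lists of 93 genes, of which 60 passed the filter, each by its probe set of highest mean signal. At 8 weeks 4 rose and 2 fell with a median of -0.01, where 429 of 7493 genes rose and 282 fell, 9.49% in all. At 2 weeks 3 rose and 2 fell, also with a median of -0.01, where 377 rose and 269 fell, 8.62% in all.

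Receptors and carriers other than members were measured in 3 of 9 cases, Igf2r, Insr and Insrr, and 0 were called in either diet comparison by limma. Igf2r, the clearance receptor of IGF-2, had a mean of 1636 ± 184 on salt+fat and 2034 ± 264 on normal arrays at 8 weeks (-0.31 ± 0.11, adjusted p = 0.0621, SD and n = 6 for the means). Insr, the insulin receptor, had 0.14 ± 0.17 at 8 weeks and -0.41 ± 0.17 at 2 weeks (adjusted p = 0.674 and 0.139). Among proteases and regulators of the binding proteins, 6 of 12 were measured. At 8 weeks Htra3, a secreted serine protease, rose by 0.54 ± 0.14 (68.6 ± 16.9 on salt+fat, 44.4 ± 7.30 on normal arrays, adjusted p = 0.0158). Ctsd, the lysosomal protease cathepsin D, rose by 0.37 ± 0.09 (2276 ± 250.3 on salt+fat, 1767 ± 273 on normal arrays, adjusted p = 0.00691). At 2 weeks Htra1, a serine protease known to cleave IGFBP-5, had 338 ± 29.6 on salt+fat and 442 ± 45.0 on normal arrays and fell by 0.38 ± 0.08 (adjusted p = 0.00408). Pappa2, a protease of IGFBP-5 and IGFBP-3, had -0.39 ± 0.17 at 8 weeks and was not called (adjusted p = 0.159).

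In growth hormone signalling 11 of 14 genes were measured, and Stat3, a transcription factor activated by cytokines and growth hormone, was the one called by diet. It had a mean of 298 ± 57.3 on salt+fat and 199 ± 29.2 on normal arrays at 8 weeks (0.56 ± 0.13, adjusted p = 0.00674). At 2 weeks it had 233 ± 33.5 on salt+fat and 170.4 ± 35.7 on normal arrays (0.45 ± 0.13, adjusted p = 0.0279). Stat5a and Stat5b, the main carriers of the growth hormone signal, had -0.22 ± 0.15 and -0.04 ± 0.24 at 8 weeks and -0.36 ± 0.15 and -0.48 ± 0.24 at 2 weeks, none called. Among substrates and adaptors, 12 of 16 were measured. Ptpn11, the phosphatase SHP2, fell at 8 weeks by 0.36 ± 0.11 (adjusted p = 0.0333), and Sos2, an exchange factor for Ras, rose at 2 weeks by 0.27 ± 0.07 (adjusted p = 0.0188).

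Of PI3 kinase, Akt, FoxO and mTOR genes 21 of 28 were measured. The kinase Akt1 had 268 ± 14.5 on salt+fat and 225 ± 16.1 on normal arrays at 8 weeks (0.25 ± 0.07, adjusted p = 0.0194). At 2 weeks it had 252 ± 20.5 on salt+fat and 195 ± 12.1 on normal arrays (0.35 ± 0.07, adjusted p = 0.00123). Akt2, its relative in insulin-responsive tissues, fell at 2 weeks by 0.44 ± 0.13 (adjusted p = 0.0300), and Gsk3a, a kinase that Akt inhibits, fell at 8 weeks by 0.51 ± 0.16 (adjusted p = 0.0446). In the Ras and MAP kinase list 7 of 14 were measured and 0 were called by limma in either diet comparison.

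For time on the salt+fat diet 2 pathway genes rose and 2 fell of 60, where 3.51% of genes were called. Ctsd rose by 0.46 ± 0.09 (adjusted p = 0.00213) and Socs3, a feedback inhibitor of cytokine and growth hormone receptors, by 0.75 ± 0.22 (adjusted p = 0.0469). Prlr, the prolactin receptor, fell by 0.45 ± 0.13 (adjusted p = 0.0404), and Pdpk1, the kinase that activates Akt, fell by 0.40 ± 0.11 (adjusted p = 0.0318). On the normal diet Prlr had a similar time difference of -0.37 ± 0.13 that was not called (adjusted p = 0.369). Time on the normal diet and the interaction called 0 of the 60 by limma.

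**Figure D3:**
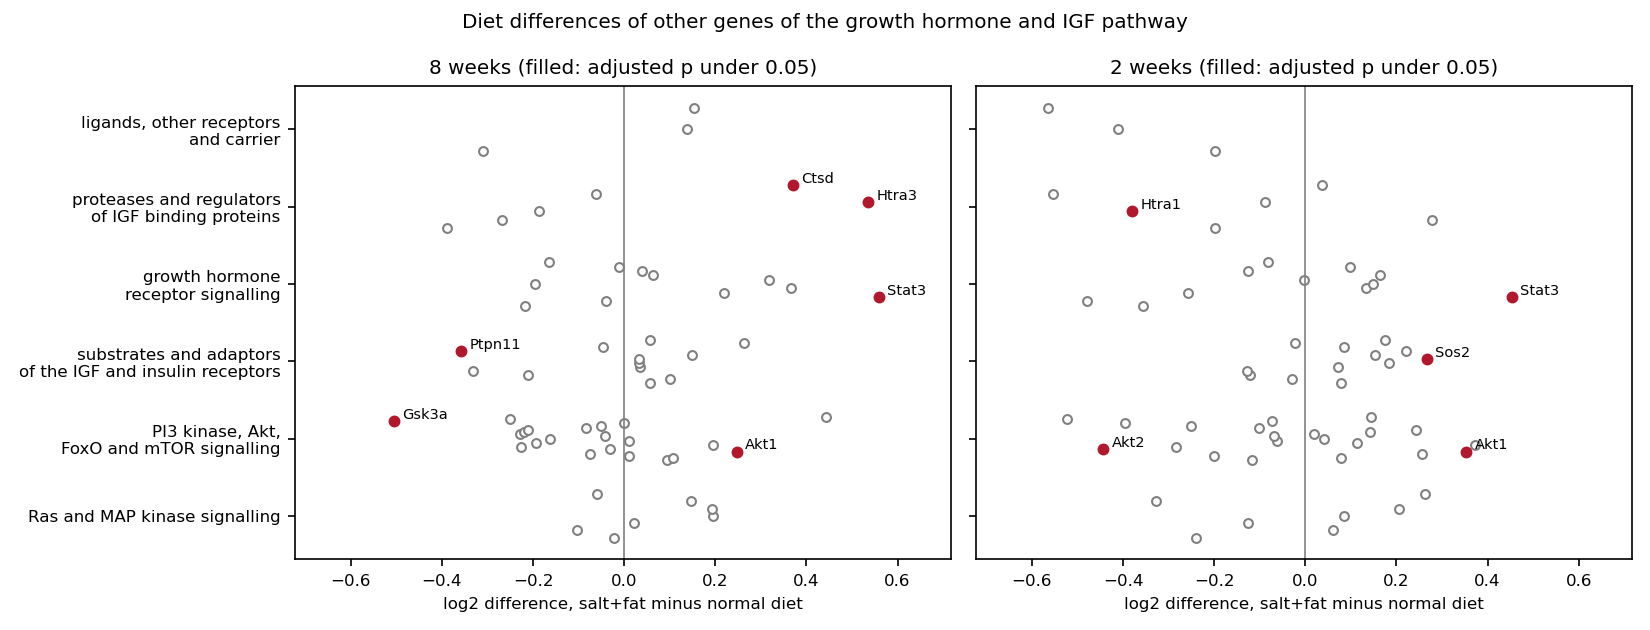
Diet differences (log2, salt+fat minus normal) of the 60 measured pathway genes outside the member list, by list, at 8 weeks (left) and 2 weeks (right). Filled, named points are called: 6 at 8 weeks and 5 at 2 weeks, on both sides of 0.

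For the 3 members called by diet at their probe set of highest mean, the genes of most similar pattern were sought over the 24 arrays. The measure was the smallest root mean square difference of log2 values centred on each gene's mean. Group means were kept in these values, so likeness in group order and diet difference follows largely from the choice. For Igfbp3, whose own root mean square was 0.451, these were Slc16a6, a monocarboxylate transporter (0.228), Adap2, an Arf GTPase-activating protein (0.259), and Slc5a2, the glucose transporter SGLT2 (0.278). Their diet differences at 8 weeks were -0.70 ± 0.11, -0.60 ± 0.11 and -0.71 ± 0.13. For Ghr, with 0.32, the nearest were Aldh6a1, an enzyme of valine breakdown (0.169), Lgr4, a receptor of R-spondins (0.193), and Lactb2, an endoribonuclease (0.196). Their diet differences at 8 weeks were -0.21 ± 0.14 (not called), -0.24 ± 0.11 (not called) and -0.31 ± 0.08, and at 2 weeks -0.58 ± 0.14, -0.13 ± 0.11 (not called) and -0.26 ± 0.08. For Igfbp6, with 0.387, they were Pnpla2, the lipase ATGL (0.257), Plaat3, a phospholipase (0.261), and Retsat, retinol saturase (0.263). Their diet differences at 2 weeks were -0.47 ± 0.13, -0.29 ± 0.10 (not called) and -0.29 ± 0.08.

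**Figure D4:**
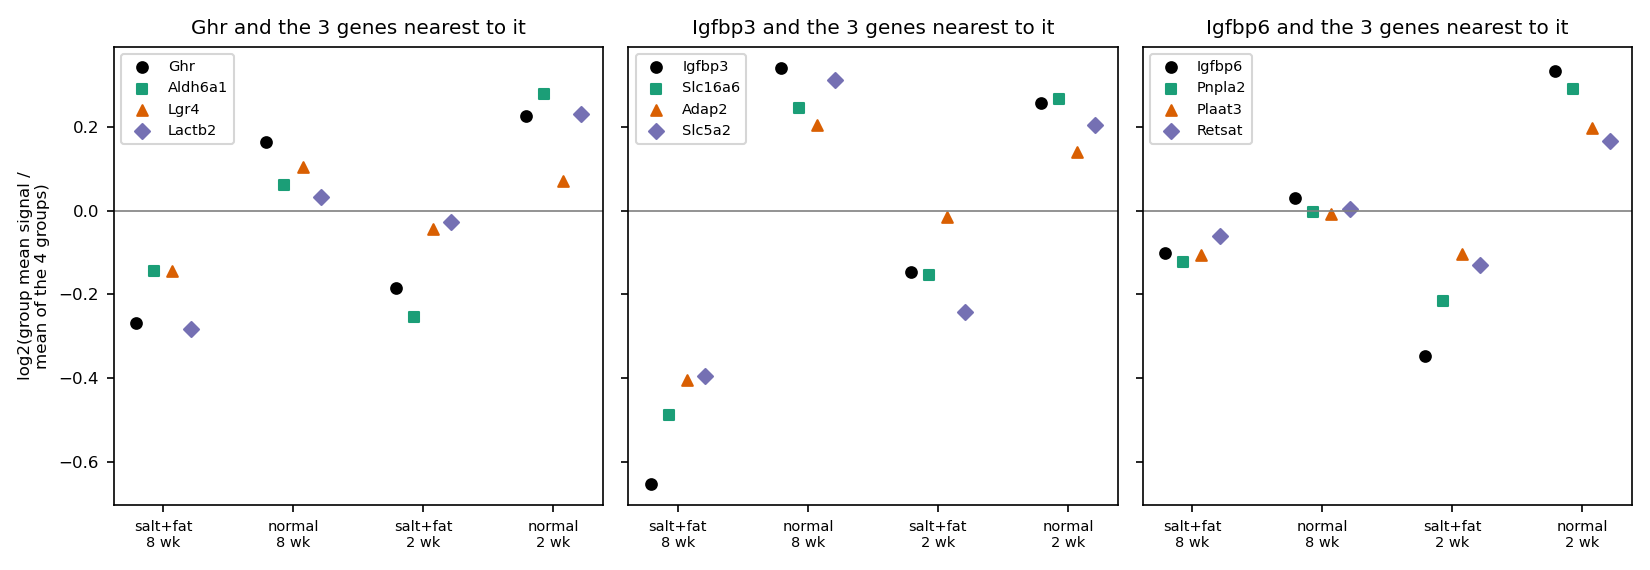
Group means relative to the mean of the 4 groups (log2) for Ghr, Igfbp3 and Igfbp6 and the 3 genes nearest to each over 24 arrays. In the Igfbp3 panel all 4 genes are lowest on salt+fat at 8 weeks, and in the Igfbp6 panel all 4 are highest on the normal diet at 2 weeks. The 3 genes were chosen for likeness over these same arrays, so a shared order follows largely from the choice.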

How the data were processed

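Kidney RNA of 24 rats was measured on 1 array per animal, in 4 groups of 6 taken from the sample titles. The authors deposited intensity values, named as MAS5 signals in the submitters' processing notes. The scaling target, the MAS5 version and detection calls are not given in the sources used here. The deposited values are linear, with 27 at 0, and their mean without the lowest and highest 2% was 150.034 to 150.042 on every array, as after scaling of each array to 1 shared level. Because that level is shared, a signal is relative to the other transcripts of its array. Per the labels' protocols, RNA was extracted from pulverised whole kidney with Trizol and RNeasy.

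Signals were taken to log2 after adding 7.2 (0.1 times the median array median) and not normalized further. A probe set was tested where it exceeded the array's 40th percentile (44.5 to 54.5) in 6 or more arrays, which kept 10208 of 15923, with 57 array controls left out. Of all probe sets 12783 had 1 symbol in the platform annotation, 312 several and 2771 none. Updating through a RefSeq table of GRCr8 changed 0 symbols, and 35 had no entry there. The table paired all 10 members with a RefSeq promoter window.

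The limma package (3.58.1, in R 4.3.3) fitted the 4 group means over all 24 arrays, with an intensity trend in eBayes and two-sided tests. The 5 comparisons were diet at each time, time on each diet, and the interaction, and an unadjusted p is from the same fit. Single values per array (marker levels, GAPDH ratio, spike-in level) were compared by exact two-sided permutation tests over arrays in Python 3.11.15 with scipy 1.17.1. Correlations used 100000 permutations within groups. The procedure was tested on simulated data. The members, the pathway and cell type lists and the tests were chosen with earlier results of these data known. Every member was described, by its brightest probe set and any other called one, and up to 4 called genes per pathway list and comparison were named. Igf2r, Insr, Stat5a, Stat5b and Pappa2, and the markers named, were named after their values were seen. Alternatives were other pseudocounts, quantile normalization, median centring, other filters, no trend, robust eBayes, weighted arrays, a block for the replicate number, only the groups compared, 4 covariates, normal arrays 1 and 2 at 8 weeks left out, and each array left out in turn. Nothing states that 1 number marks shared animals, litters or days, and deviations of same-numbered arrays from the group means correlated at -0.104 to 0.162, so numbers were not taken as pairs. The number of arrays limits the precision. No batch is named in the labels.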

Additional observations from a re-analysis of the deposited data

Results flagged for a closer look

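In 3 of 60 groups of 6 arrays examined over the member probe sets, 1 array stood apart from the other 5 by Dixon's gap test at the 95% level, and chance alone flags about 1 in 20 groups. For Ghr 1373803_a_at, salt+fat array 1 at 8 weeks had a signal of 109.8, where the next lowest was 130.2 and the highest 140.9. For Igfbp5 1387347_at, normal array 5 at 2 weeks had 81.1, where the next lowest was 158.5 and the highest 197.6. For Igfbp7 1371357_at, normal array 6 at 2 weeks had 3576.5, where the next lowest was 4380.6 and the highest 4626.3. The low Ghr array lies on the side of the reported diet difference, which was still called without it. The Igfbp5 and Igfbp7 arrays belong to comparisons that were not called.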

How the results depend on the processing

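At 8 weeks the number of member probe sets called by diet, 4 in the reported fit, stayed within 1.5 times of that value in every setting run, and was 3 to 5 with 1 array left out. At 2 weeks, where 4 were called, limma called 0 with the adipocyte level as a covariate, 1 with the GAPDH ratio, 2 with the liver level and 7 with the replicate number as a block (replicate block), and 2 to 6 with 1 array left out. Over all 10208 probe sets the first 4 of these fits called 144, 314, 510 and 892, against 892 in the reported fit. For time on salt+fat, where 2 were called, limma called 0 with only the groups compared, with the liver level or with the spike-in level as a covariate, 1 with no filter, no intensity trend or the GAPDH ratio, 4 with array weights, and 0 to 3 with 1 array left out. The cause of these shifts was not tested. The replicate block, a paired fit by number, called Ghr 1368924_at (-0.42), Igfbp1 (0.56) and Igfbp5 1370960_at (0.25) in addition at 2 weeks, with adjusted p of 0.0447, 0.0344 and 0.0487. In each comparison at most 2 of 6 arrays correlated best with their own number, which gave no sign of pairing but cannot exclude shared litters or days. Of the 10 called member differences 0 changed sign in any setting. Igfbp6 at 2 weeks was called in 9 of 14 other settings and 3 of 12 fits without 1 array, and it was not tested with the filter at the 60th percentile. The weak signal of Igfbp6, below the filter on 7 of 24 arrays, limits what can be said of this gene.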
